A study of Mus musculus with 30 samples.

Results

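The transcripts of 9 enzymes that make or break down arginine and proline were measured in mouse erythroleukemia (MEL) cells with and without Abcb10. The members are the rows of the count table whose mouse Ensembl identifier (GRCm38) carries the symbol *Ass1*, *Asl*, *Arg1*, *Arg2*, *Oat*, *Aldh18a1*, *Pycr1*, *Prodh* or *Got1*. All 9 were found among the 54532 genes listed. *Aldh18a1* and *Pycr1*, which make proline, rose with differentiation in Abcb10-null cells and fell in WT cells. *Ass1*, which opens arginine synthesis, fell in both genotypes, and the arginases were at or near 0 throughout.

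Arginine can be rebuilt from citrulline by argininosuccinate synthase (*Ass1*), which joins citrulline to aspartate, and argininosuccinate lyase (*Asl*), which releases arginine. The arginases, cytosolic *Arg1* and mitochondrial *Arg2*, break arginine down to ornithine and urea. Ornithine aminotransferase (*Oat*) converts ornithine to an intermediate, pyrroline-5-carboxylate, that lies between ornithine, glutamate and proline. *Aldh18a1* makes the same intermediate from glutamate, *Pycr1* reduces it to proline inside mitochondria, and *Prodh* oxidizes proline back to it. *Got1*, the cytosolic aspartate aminotransferase, interconverts aspartate and glutamate, which are substrates of *Ass1* and *Aldh18a1*. Arginine supply is known to bear on hemoglobin formation in developing red cells.

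RNA was sequenced from WT and Abcb10-null lines of MEL before DMSO was added (day 0) and after 2 or 5 days in 1.5% DMSO, which induces the line to mature toward hemoglobin-making cells. Each of the 6 groups had 5 libraries labelled as biological replicates, 30 in all. Both genotypes are the same established mouse line grown in DMEM with added non-essential amino acids. The Abcb10-null cells are a CRISPR/Cas9 clone, cut in exon 1 of *Abcb10*, so a difference between the genotypes cannot be told apart from one between this clone and its parent line. The labels do not say whether the replicates are separate cultures, so p-values measure the spread between these libraries, which may be partly technical.

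Library totals ranged from 9906783 to 20157768 counts. *Abcb10* itself, the gene cut, was lower in the Abcb10-null libraries at each day and the groups did not overlap, with 74.2 ± 4.81 against 119 ± 5.64 CPM (counts scaled to the library total, SD, n = 5) at day 0 and 212 ± 30.1 against 1220 ± 45.6 CPM at day 5. Of 12 erythroid markers, 11 or 12 had a mean of at least 1 CPM in every group. Their summed level ran from 10400 to 22200 CPM in WT cells and from 4950 to 6370 CPM in Abcb10-null cells at day 5. The lowest of the WT libraries at day 5 was replicate 5, and the other 4 had 19100 to 22200 CPM. The summed levels of hepatocyte markers, a cell type rich in arginase, were at most 9.56 CPM in any library, a day 0 library in which nearly all of it was *Apoa1*. Those of macrophage, monocyte and granulocyte markers were at most 15.8 CPM, of mast cell markers 6.14 CPM and of T and B cell markers 4.87 CPM. At day 5, 3 libraries (WT replicate 3, and Abcb10-null replicates 4 and 5) had a count for 27675 to 36511 genes, more than any other library. In bulk RNA, fewer cells at a given stage and less RNA per cell cannot be told apart.

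Among the arginine-making steps, *Ass1* fell with differentiation in both genotypes. *Ass1* (ENSMUSG00000076441, chromosome 2, 31470207 to 31520672, plus strand, GRCm38) was at 3.22, 6.27, 4.6, 4.42 and 5.47 CPM in the WT libraries at day 0, and at 4.07, 4, 3.28, 2.56 and 4.7 CPM in the Abcb10-null ones. For *Ass1* at day 5, the WT libraries had 0.582, 0.608, 0.741, 0.217 and 1.48 CPM and the Abcb10-null ones 0.504, 0.559, 0.621, 1.04 and 0.231 CPM. Every library at day 5 was below every library of its genotype at day 0, while the genotypes overlapped at each day. The log2 fold change from day 0 to day 5 was -2.70 ± 0.38 (SE) in WT cells (adjusted p = 2.7e-05, edgeR quasi-likelihood test) and -2.68 ± 0.34 in Abcb10-null cells (adjusted p = 3.5e-06). By day 2 the falls were 1.08 and 1.22 on the log2 scale, with *Ass1* means of 2.25 ± 0.708 CPM in WT cells and 1.56 ± 0.712 CPM in Abcb10-null cells (SD, n = 5). Both genotypes thus lost most of their *Ass1* transcript. The difference between these changes over 5 days was 0.03 (95% interval -1.19 to 1.25, adjusted p = 0.976). The *Ass1* mean was lower in Abcb10-null cells on each day, with 3.72 against 4.8 CPM at day 0, 1.56 against 2.25 at day 2 and 0.59 against 0.725 at day 5. None of these differences passed an exact two-sided permutation test (p = 0.143, 0.119 and 0.579, smallest possible 0.00794). In the edgeR test the log2 difference in *Ass1* was -0.36 at day 0 (95% interval -0.78 to 0.06, adjusted p = 0.175). At day 2 it was -0.58 (95% interval -1.4 to 0.24, adjusted p = 0.261). The gene was too low for the fit across genes at day 5, with 3 to 23 counts a library in WT cells and 3 to 11 in Abcb10-null cells. Of the 50-base words in *Ass1* exons, 38.6% also occur in the pseudogene *Gm5424*, so reads could have been split or dropped there.

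*Asl*, the next enzyme, did not follow *Ass1*. *Asl* (ENSMUSG00000025533, chromosome 5, 130011258 to 130029247, minus strand) was at 25, 22.4, 23.4, 19.1 and 22.4 CPM in the WT libraries at day 0, and at 23.8, 32.1, 30.6, 30.1 and 31.9 CPM in the Abcb10-null ones. For *Asl* at day 5, the WT libraries had 19.4, 18.1, 20.5, 22.1 and 24.9 CPM and the Abcb10-null ones 29.9, 32.6, 27.8, 26.7 and 24.2 CPM. On both days 1 Abcb10-null library lay among the WT libraries and the other 4 lay above them. The Abcb10-null level was higher by 0.39 ± 0.09 on the log2 scale at day 0 (adjusted p = 0.00312) and by 0.42 ± 0.13 at day 5 (adjusted p = 0.02). At day 2 the *Asl* difference was 0.10 (95% interval -0.19 to 0.38, adjusted p = 0.599). No change over days passed the test in either genotype, with a log2 change from day 0 to day 5 of -0.10 (95% interval -0.36 to 0.16) in WT cells and -0.06 (-0.29 to 0.17) in Abcb10-null cells. The day 5 call for *Asl* was lost without WT replicate 1 (adjusted p = 0.0501), without Abcb10-null replicate 2 (adjusted p = 0.068), and without the 3 libraries with the most genes counted (log2 difference 0.52, adjusted p = 0.0594). It was also lost with every gene of at least 1 count in the fit (adjusted p = 0.226).

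The arginases, which would break arginine down, were barely detected. *Arg1* (ENSMUSG00000019987, chromosome 10, 24915221 to 24927484) had no count in 28 of the 30 libraries, 5 counts in WT replicate 3 at day 5 and 10 counts in Abcb10-null replicate 4 at day 5. Both are libraries with unusually many genes counted. *Arg2* (ENSMUSG00000021125, chromosome 12, 79130777 to 79156301) had 44 counts over all libraries and exceeded a floor of 3 counts in 5 of them. *Arg2* shares 20% of its exon bases with *Vti1b* and 8.12% with the antisense gene *Gm48780*, both on the opposite strand. The strand setting of the counting is not given in the sources used here, so reads of *Arg2* and its partners cannot be told apart in the shared bases. A floor of 3 counts corresponded to 0.148 to 0.311 CPM, depending on the library, so the *Arg1* and *Arg2* levels were at or near the limit of detection and no fold change is given for them. These limits cover counting error only.

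*Oat*, the link from ornithine to the proline intermediate, was higher in Abcb10-null cells at every day and fell by a like amount in both genotypes. *Oat* (ENSMUSG00000030934, chromosome 7, 132557478 to 132576398, minus strand) was at 444, 411, 428, 395 and 390 CPM in the WT libraries at day 0, and at 512, 551, 574, 557 and 573 CPM in the Abcb10-null ones. For *Oat* at day 2, the WT libraries had 228, 229, 314, 317 and 290 CPM and the Abcb10-null ones 337, 369, 340, 377 and 389 CPM. For *Oat* at day 5, the WT libraries had 251, 159, 239, 221 and 247 CPM and the Abcb10-null ones 343, 298, 285, 287 and 324 CPM. The genotypes did not overlap on any day, and within each genotype every day 5 library was below every day 0 library. The *Oat* difference was 0.41 ± 0.06 on the log2 scale at day 0 (adjusted p = 1.33e-05), 0.35 ± 0.12 at day 2 (adjusted p = 0.0443) and 0.46 ± 0.12 at day 5 (adjusted p = 0.011). The genotype difference in *Oat* was thus in place before DMSO was added. From day 0 to day 5 *Oat* fell by 0.89 in WT cells (adjusted p = 1.32e-05) and by 0.84 in Abcb10-null cells (adjusted p = 7.63e-08), and the difference between these changes was 0.06 (95% interval -0.22 to 0.34, adjusted p = 0.78). The day 2 call for *Oat* was lost in 8 of the 10 fits without 1 library, all but those without WT replicate 3 or 4 (adjusted p = 0.0516 to 0.114). It was also lost with every gene of at least 1 count in the fit (adjusted p = 0.115) and with only genes of at least 10 counts in every library (adjusted p = 0.0543). The day 5 call was lost without the 3 libraries with the most genes counted (log2 difference 0.51, adjusted p = 0.0619) and with every gene of at least 1 count in the fit (adjusted p = 0.109).

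**Figure D1:**
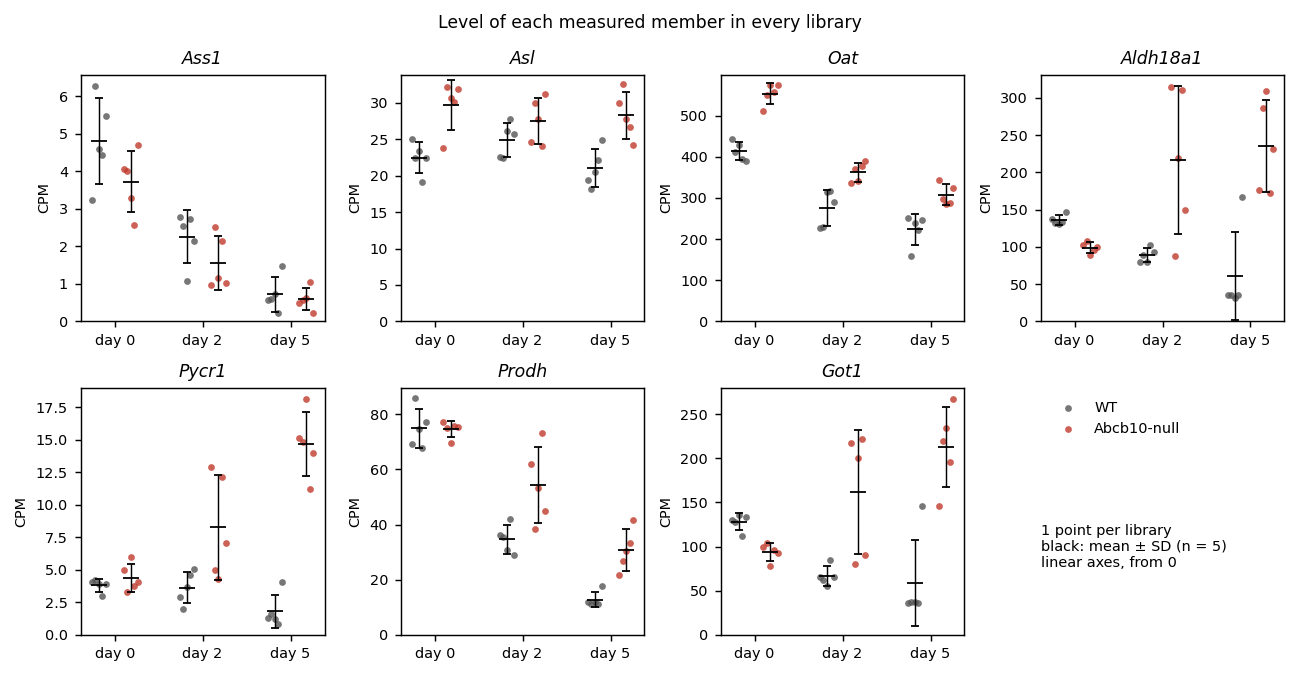
Level of each measured member in every library, as CPM on linear axes from 0, by day and genotype. Points are single libraries and black marks are the mean ± SD of 5. *Aldh18a1* in WT cells at day 5 shows 4 libraries at 31.5 to 35.9 CPM and replicate 5 at 167 CPM, and in Abcb10-null cells it rises to a mean of 235 CPM.

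The transcripts of *Pycr1*, *Got1*, *Aldh18a1* and *Prodh* are the members whose course over 5 days differed between the genotypes, so a stretch of the promoter is shown for the first 3. RefSeq promoters (GRCm38.p6, 250 bases before to 50 after the start) were at hand for 6 of the 9 members: *Ass1*, *Oat*, *Aldh18a1*, *Pycr1*, *Prodh* and *Got1*. The letters TGATGNAA, the composite element bound by dimers of C/EBP and ATF family factors, were searched on both strands. They occur in 2 of the 6 member promoters, *Pycr1* and *Got1*, and in 3.97% of all 32851 promoters of the same length. The first base lies 103 bases before the start of *Pycr1* and 102 bases before that of *Got1*, where the element is on the opposite strand. The stretches run from 130 to 71 bases before the start, 5′ to 3′ on the strand of the gene, with the match in capitals. They lie at chr11:120643819-120643878 for *Pycr1*, chr19:43524676-43524735 for *Got1* and chr19:40588534-40588593 for *Aldh18a1*, all on the minus strand.
Pycr1: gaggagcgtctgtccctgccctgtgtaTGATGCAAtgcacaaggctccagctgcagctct
Got1: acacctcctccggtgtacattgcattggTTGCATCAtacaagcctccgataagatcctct
Aldh18a1: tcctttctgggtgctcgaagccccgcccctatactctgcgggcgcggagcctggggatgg
The windows searched for *Aldh18a1*, *Prodh*, *Ass1* and *Oat* do not hold these letters. Only the first promoter listed for each member was searched, so any other start of a member was not covered. The RefSeq starts of *Prodh*, *Ass1* and *Pycr1* lie inside the span of the gene in the annotation, that of *Prodh* so far inside that its whole window falls within the gene, and it is not printed. CACGTG, the E-box, which reads the same on both strands, occurs in the windows of *Aldh18a1*, 59 bases before its start, and *Ass1*, 36 bases before its start, and in 7.15% of all promoters. TGACGTCA, the cyclic AMP response element, which also reads the same on both strands, occurs in none of the 6 and in 1.79% of all promoters. No match overlapped one of another element. A match describes the letters only.

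*Aldh18a1*, which opens the route from glutamate to proline, moved in opposite directions in the genotypes. *Aldh18a1* (ENSMUSG00000025007, chromosome 19, 40550257 to 40588463, minus strand) was at 137, 132, 131, 133 and 147 CPM in the WT libraries at day 0, and at 102, 108, 88.6, 96.3 and 99.9 CPM in the Abcb10-null ones. For *Aldh18a1* at day 2, the WT libraries had 80.4, 88.5, 79.5, 103 and 92.8 CPM and the Abcb10-null ones 314, 87.8, 219, 311 and 149 CPM. For *Aldh18a1* at day 5, the WT libraries had 35.7, 35.7, 31.5, 35.9 and 167 CPM and the Abcb10-null ones 176, 287, 309, 173 and 232 CPM. Every Abcb10-null library was below every WT library at day 0 and above every WT library at day 5, while at day 2 replicate 2 of the Abcb10-null cells lay within the WT range. The *Aldh18a1* difference was -0.47 ± 0.06 on the log2 scale at day 0 (adjusted p = 1.97e-05), 1.23 ± 0.27 at day 2 (adjusted p = 0.00698) and 1.95 ± 0.43 at day 5 (adjusted p = 0.00355). The order of the genotypes was thus opposite at day 0 and at the later days. From day 0 to day 5 *Aldh18a1* fell by 1.16 in WT cells (adjusted p = 0.0201) and rose by 1.26 in Abcb10-null cells (adjusted p = 1.32e-06). These changes differed by 2.43 ± 0.46 over 5 days (adjusted p = 0.000312) and by 1.74 ± 0.30 over 2 days (adjusted p = 0.000656). The *Aldh18a1* difference at day 0 kept its size but not its call when all 30 libraries shared one estimate of the spread (-0.46 ± 0.33, adjusted p = 0.416).

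One WT library set the size of the day 5 difference for *Aldh18a1*. Without WT replicate 5 the *Aldh18a1* difference at day 5 was 2.74 ± 0.19 on the log2 scale, the WT change from day 0 was -1.97 and the difference between the changes was 3.23. Without WT replicate 4 the WT fall of *Aldh18a1* no longer passed the test (adjusted p = 0.052). The summed erythroid markers of WT replicate 5 were 10400 CPM against 19100 to 22200 CPM in the other 4. At day 2 the Abcb10-null libraries with the lower *Aldh18a1* levels, replicates 2 and 5, had summed erythroid markers of 2320 and 2370 CPM, and replicates 1, 3 and 4 had 3160, 3310 and 3100 CPM. Among Abcb10-null libraries at day 2 high *Aldh18a1* thus went with a high marker sum. The WT library with high *Aldh18a1* at day 5 had the lowest sum of its group. The most abundant markers weigh most in this sum. *Tfrc* had a mean of 890 CPM of a summed 2850 CPM in Abcb10-null cells at day 2. In WT cells at day 5 *Tfrc* and *Alas2* had means of 7440 and 6010 CPM of a summed 18500 CPM. The part of erythroid maturation in these differences of *Aldh18a1* was not tested.

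*Pycr1*, which completes proline synthesis in mitochondria and whose promoter stretch is shown with the TGATGCAA match, had the largest genotype difference of the members at day 5. *Pycr1* (ENSMUSG00000025140, chromosome 11, 120635712 to 120643769, minus strand) was at 4.02, 4.23, 3.93, 2.97 and 3.91 CPM in the WT libraries at day 0, and at 4.97, 3.25, 5.95, 3.71 and 4.04 CPM in the Abcb10-null ones. For *Pycr1* at day 2, the WT libraries had 2.89, 2.01, 3.66, 4.57 and 5.03 CPM and the Abcb10-null ones 12.9, 4.95, 4.29, 12.1 and 7.04 CPM. For *Pycr1* at day 5, the WT libraries had 1.31, 1.59, 1.2, 0.794 and 4.05 CPM and the Abcb10-null ones 15.1, 14.8, 18.1, 11.2 and 14 CPM. The genotypes overlapped at days 0 and 2, and at day 5 the lowest Abcb10-null library was above the highest WT library, which was again replicate 5. The *Pycr1* difference was 0.19 (95% interval -0.20 to 0.59, adjusted p = 0.448) at day 0, 1.13 ± 0.35 (adjusted p = 0.0257) at day 2 and 3.00 ± 0.35 (adjusted p = 5.19e-05) at day 5. The day 5 value is an 8.02-fold higher level, on 11 to 63 counts a library in WT cells and 108 to 320 in Abcb10-null cells. The genotypes overlapped at day 0, had parted by day 5, and changed in opposite directions. From day 0 to day 5 *Pycr1* fell by 1.07 in WT cells (adjusted p = 0.0181) and rose by 1.75 in Abcb10-null cells (adjusted p = 4.43e-07), a difference between the changes of 2.82 ± 0.40 (adjusted p = 1.19e-05). Without WT replicate 5 at day 5 the WT change of *Pycr1* was -1.64, the day 5 difference was 3.55 and the difference between the changes was 3.38. Over 2 days the changes of *Pycr1* differed by 0.98 ± 0.41, which did not pass the test (adjusted p = 0.0854) and passed it without Abcb10-null replicate 2 (adjusted p = 0.0353) or 3 (adjusted p = 0.0471) at day 2. Leaving out WT replicate 1, WT replicate 2, Abcb10-null replicate 1 or Abcb10-null replicate 4 ended the day 2 genotype call for *Pycr1* (adjusted p = 0.06 to 0.0799).

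*Got1*, which ties aspartate to glutamate and is the other member with the match, followed the course of *Aldh18a1*. *Got1* (ENSMUSG00000025190, chromosome 19, 43499752 to 43524605, minus strand) was at 130, 128, 136, 112 and 134 CPM in the WT libraries at day 0, and at 100, 104, 77.7, 96.4 and 92.2 CPM in the Abcb10-null ones. For *Got1* at day 2, the WT libraries had 65, 62.2, 55.3, 85.2 and 65.9 CPM and the Abcb10-null ones 217, 80.6, 200, 222 and 90.4 CPM. For *Got1* at day 5, the WT libraries had 35.9, 37.4, 37, 36.2 and 146 CPM and the Abcb10-null ones 146, 220, 234, 196 and 267 CPM. The same libraries stood apart as for *Aldh18a1*, with WT replicate 5 high at day 5 and Abcb10-null replicates 2 and 5 low at day 2. The *Got1* difference was -0.45 ± 0.08 on the log2 scale at day 0 (adjusted p = 0.000178), 1.22 ± 0.27 at day 2 (adjusted p = 0.0064) and 1.86 ± 0.37 at day 5 (adjusted p = 0.00197). As for *Aldh18a1*, the Abcb10-null level was lower at day 0 and higher afterwards. From day 0 to day 5 *Got1* fell by 1.13 in WT cells (adjusted p = 0.0113) and rose by 1.19 in Abcb10-null cells (adjusted p = 8.39e-07). These changes differed by 2.33 ± 0.40 over 5 days (adjusted p = 0.000124) and by 1.73 ± 0.30 over 2 days (adjusted p = 0.000656). Without WT replicate 5 at day 5 the *Got1* difference was 2.52 ± 0.16, the WT change was -1.81 and the difference between the changes was 2.99. With all 30 libraries in one fit the *Got1* difference at day 0 was -0.45 ± 0.30 and lost its call (adjusted p = 0.377).

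*Prodh*, the proline-breaking step, fell in both genotypes and fell less in Abcb10-null cells. *Prodh* (ENSMUSG00000003526, chromosome 16, 18060357 to 18090203, minus strand) was at 69.3, 85.8, 74.6, 67.9 and 77.1 CPM in the WT libraries at day 0, and at 77.2, 74.9, 69.7, 75.9 and 75.3 CPM in the Abcb10-null ones. For *Prodh* at day 2, the WT libraries had 36.2, 35.3, 30.7, 42 and 28.9 CPM and the Abcb10-null ones 61.8, 38.3, 53.4, 73.1 and 44.8 CPM. For *Prodh* at day 5, the WT libraries had 11.9, 11, 11.9, 11.1 and 17.7 CPM and the Abcb10-null ones 21.7, 26.6, 30.4, 33.2 and 41.7 CPM. The genotypes overlapped at days 0 and 2 and stood apart at day 5, where WT replicate 5 was the WT library nearest to the Abcb10-null range. The *Prodh* difference was -0.01 (95% interval -0.16 to 0.14, adjusted p = 0.904) at day 0, 0.60 ± 0.17 (adjusted p = 0.0203) at day 2 and 1.26 ± 0.19 (adjusted p = 0.000303) at day 5. Both genotypes lost *Prodh* transcript, WT cells more of it. From day 0 to day 5 *Prodh* fell by 2.56 in WT cells (adjusted p = 5.25e-09) and by 1.28 in Abcb10-null cells (adjusted p = 3.42e-07), a difference between the changes of 1.29 ± 0.20 (adjusted p = 3.35e-05). Over 2 days the changes of *Prodh* differed by 0.66 ± 0.19 (adjusted p = 0.0157). The day 2 genotype call for *Prodh* was lost without Abcb10-null replicate 1 (adjusted p = 0.0537) or 4 (adjusted p = 0.0593), and the call on the difference over 2 days was lost without replicate 4 (adjusted p = 0.0517).

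**Figure D2:**
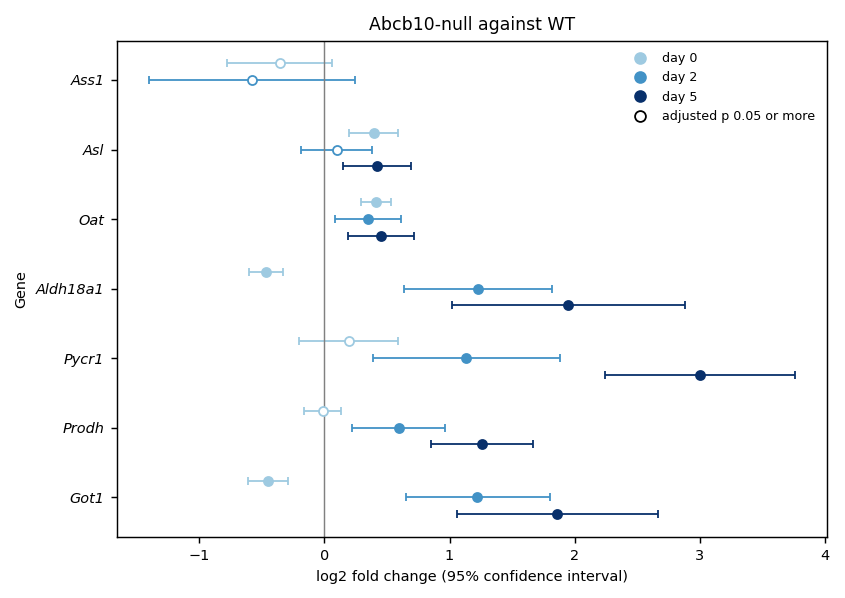
Log2 difference between the genotypes (Abcb10-null over WT) on days 0, 2 and 5 for each member tested, with 95% confidence intervals over 5 libraries a group. Open points did not pass an adjusted p of 0.05. *Aldh18a1* and *Got1* lie below 0 at day 0 and above it at days 2 and 5, and *Pycr1* reaches 3.00 at day 5.

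Counted over the members, 4 of the 7 tested differed between the genotypes at day 0, with 2 higher in Abcb10-null cells (*Asl*, *Oat*) and 2 lower (*Aldh18a1*, *Got1*). Of all genes tested at day 0, 36% were called, 19.7% higher and 16.2% lower. At day 2, 5 of 7 were higher (*Oat*, *Aldh18a1*, *Pycr1*, *Prodh*, *Got1*) and none lower, where 31.8% of all genes were called, 14.9% higher and 16.9% lower. At day 5 all 6 that could be tested were higher, where 37.6% of all genes were called, 19.8% higher and 17.8% lower. Synthesis and breakdown steps were both among the higher members at day 5, since *Prodh* was higher along with *Aldh18a1* and *Pycr1*. The libraries of the genotypes did not overlap for 3 of 7 members at day 0 (22.9% of all genes), 1 of 7 at day 2 (16.1%) and 5 of 6 at day 5 (23.9%). For *Got1* the day 5 groups nearly touched. WT replicate 5 had 57.5 and Abcb10-null replicate 1 had 57.7 CPM per kilobase of exon, both 146 CPM when rounded. For *Aldh18a1* the nearest day 5 libraries were WT replicate 5 at 167 CPM and Abcb10-null replicate 4 at 173 CPM. The 7 members tested had a median log2 difference of -0.01 before DMSO and 0.60 on day 2. On day 5 the median was 1.56 over the 6 tested, a set without *Ass1*, so it is not over the same members. The median of all genes tested was within 0.02 of 0 on each day. Without the 3 libraries with the most genes counted, 4 of the 6 members were called at day 5. With every gene of at least 1 count in the fit 4 were called as well.

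Over time in WT cells, 5 of the 7 members tested were lower at day 2 than at day 0 (*Ass1*, *Oat*, *Aldh18a1*, *Prodh*, *Got1*), where 62.2% of all genes were called, 30.7% lower and 31.5% higher. At day 5, 6 of 7 were lower, *Pycr1* being added, where 71.2% of all genes were called, 34.7% lower and 36.5% higher. No member rose in WT cells. In Abcb10-null cells 3 rose (*Aldh18a1*, *Pycr1*, *Got1*) and 3 fell (*Ass1*, *Oat*, *Prodh*) at day 2, where 43.1% of all genes were called, 23.1% higher and 20.1% lower. The same counts held at day 5, where 67.2% were called, 33.9% higher and 33.3% lower. The libraries of the 2 days compared did not overlap for 5 of 7 members in WT cells at day 2 (46.6% of all genes) and 3 of 7 at day 5 (56.4%), and for 2 of 7 in Abcb10-null cells at day 2 (29.5%) and 6 of 7 at day 5 (54.2%). The changes at day 2 and day 5 share the day 0 libraries of their genotype. At day 2 the Abcb10-null rise of *Pycr1* was 0.93 ± 0.31 on the log2 scale and lost its call without day 0 replicate 2, 4 or 5 or day 2 replicate 1 or 4 (adjusted p = 0.0586 to 0.0761). The fall of *Prodh* was 0.43 and lost its call without day 0 replicate 1, 2 or 4 or day 2 replicate 3 or 5 (adjusted p = 0.0539 to 0.0626). The rise of *Got1* was 0.81 ± 0.25 and lost its call without day 0 replicate 3 (adjusted p = 0.0532) or day 2 replicate 1 (adjusted p = 0.0508).

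Tested as a difference between the genotypes, the change over 2 days differed for 3 of 7 members, each toward a higher level in Abcb10-null cells, where 22.8% of all genes differed, 12% in that direction and 10.8% in the other. Over 5 days it differed for 4 of 7 (*Aldh18a1*, *Pycr1*, *Prodh*, *Got1*), where 31.5% of all genes differed, 16.8% in that direction and 14.7% in the other. The other 3, *Ass1*, *Asl* and *Oat*, are the members that act on citrulline, argininosuccinate and ornithine. Their differences over 5 days were 0.03, 0.04 and 0.06 on the log2 scale, and the interval of *Ass1* left room for a change of more than 1 in either direction.

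**Figure D3:**
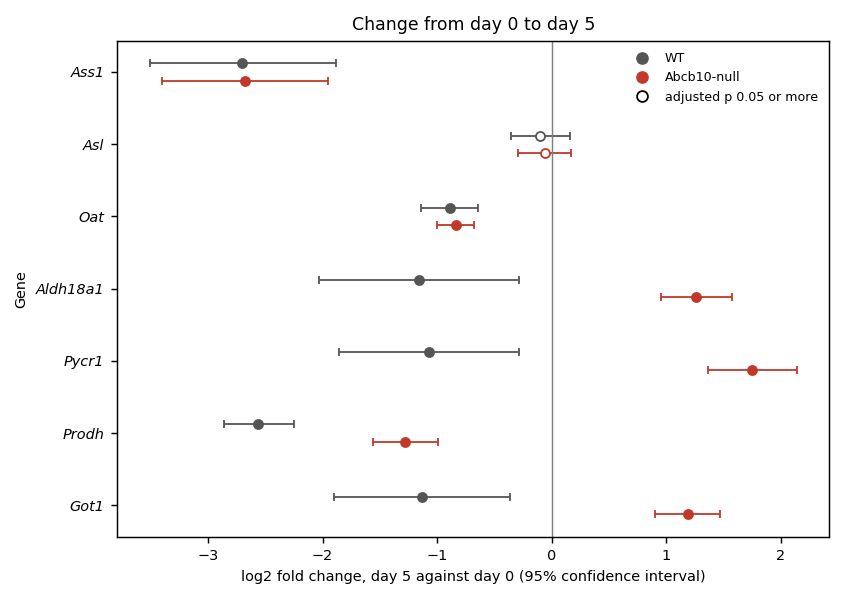
Log2 fold change from day 0 to day 5 in WT and Abcb10-null cells for each member tested, with 95% confidence intervals over 5 libraries a group. The intervals of both genotypes lie on opposite sides of 0 for *Aldh18a1*, *Pycr1* and *Got1* and nearly coincide for *Ass1*, *Asl* and *Oat*. *Prodh* fell by 2.56 in WT cells and by 1.28 in Abcb10-null cells.

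Synthesis was also set against breakdown inside each library, as the log2 ratio of CPM + 0.5. Scaling between libraries enters such a ratio only through the added 0.5, most for a low transcript such as *Pycr1*. No test was run on these ratios. For *Aldh18a1* to *Prodh* the log2 ratio was 0.974, 0.617, 0.811, 0.966 and 0.927 in WT cells at day 0 and 0.399, 0.524, 0.344, 0.341 and 0.405 in Abcb10-null cells. At day 5 it was 1.54, 1.65, 1.36, 1.65 and 3.2 in WT cells and 2.99, 3.41, 3.33, 2.37 and 2.46 in Abcb10-null cells. The mean ratio was thus higher at day 5 than at day 0 in both genotypes, 1.88 ± 0.75 against 0.86 ± 0.15 in WT cells and 2.91 ± 0.48 against 0.40 ± 0.07 in Abcb10-null cells (SD, n = 5). At day 0 every Abcb10-null ratio of *Aldh18a1* to *Prodh* was below every WT ratio, and at day 5 all but WT replicate 5, at 3.2, were in the opposite order. Without that library the WT mean of the *Aldh18a1* to *Prodh* ratio was 1.55.

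For *Pycr1* to *Prodh* the log2 ratio was -3.95, -4.19, -4.08, -4.3 and -4.14 in WT cells at day 0 and -3.83, -4.33, -3.44, -4.18 and -4.06 in Abcb10-null cells. At day 5 it was -2.78, -2.46, -2.87, -3.17 and -2 in WT cells and -0.505, -0.826, -0.734, -1.53 and -1.54 in Abcb10-null cells. The genotypes overlapped at day 0, and at day 5 every Abcb10-null ratio was above every WT ratio. The mean of *Pycr1* to *Prodh* went from -4.13 ± 0.13 to -2.65 ± 0.445 in WT cells and from -3.97 ± 0.35 to -1.03 ± 0.48 in Abcb10-null cells. In WT cells this higher ratio came with a fall of both transcripts, *Prodh* falling more. The last ratio, *Oat* to *Aldh18a1*, sets the ornithine entry to the shared intermediate against the glutamate entry. In WT cells its mean was 1.6 ± 0.12 before DMSO and 2.20 ± 0.96 on day 5. In Abcb10-null cells the means were 2.48 ± 0.15 and 0.42 ± 0.45. The *Oat* to *Aldh18a1* ratios of the genotypes did not overlap at day 0, and at day 5 only WT replicate 5, at 0.564, lay inside the Abcb10-null range of -0.116 to 0.963. Ratios of *Ass1* or *Asl* to an arginase were not formed, since the arginases were at or under the floor in most libraries.

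**Figure D4:**
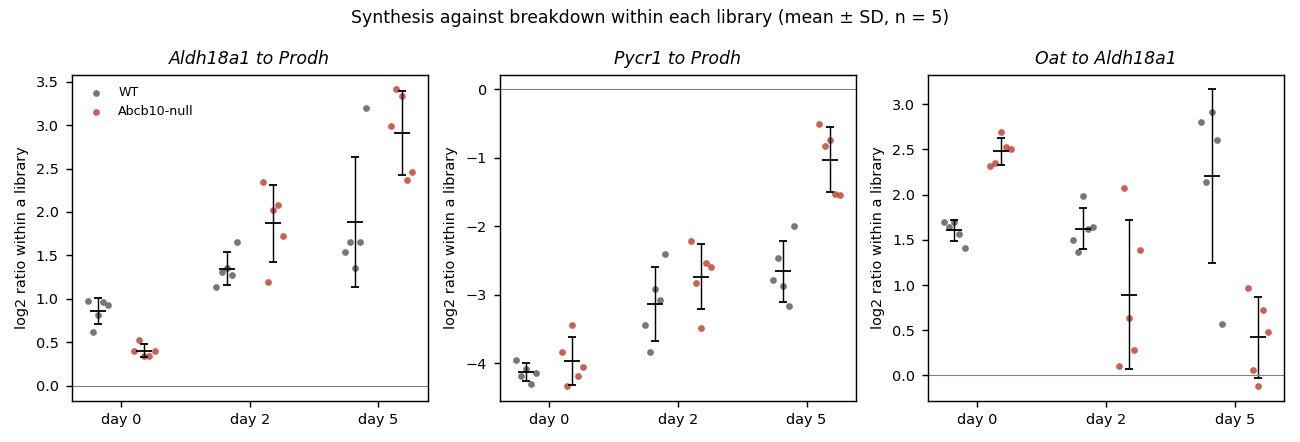
Log2 ratio of *Aldh18a1* to *Prodh*, *Pycr1* to *Prodh* and *Oat* to *Aldh18a1* within each library, by day and genotype. Points are single libraries and black marks are the mean ± SD of 5. The *Pycr1* to *Prodh* ratio of Abcb10-null cells at day 5 lies between -1.54 and -0.505, above every WT library.

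Compared between genes per kilobase of exon, *Oat* had the highest level of the members in every group, from 94.6 ± 16 CPM per kilobase in WT cells at day 5 to 234 ± 10.7 in Abcb10-null cells at day 0. The length is that of all annotated exons of a gene together, 2360 bases for *Oat*, 4831 for *Asl* and 7797 for *Prodh*. It can exceed the length of the transcripts present, which would lower the value of a gene, so the order between genes depends on it. *Got1* was next in each group and *Aldh18a1* came after it, at 50.4 ± 3.71 and 33.4 ± 1.6 CPM per kilobase in WT cells at day 0. Their ranges overlapped at days 2 and 5 in both genotypes and not at day 0. *Prodh* followed at day 0, with 9.61 ± 0.92 CPM per kilobase in WT cells and 9.57 ± 0.37 in Abcb10-null cells. At day 5 *Prodh* had dropped below *Asl* in WT cells, to 1.63 ± 0.36 against 4.34 ± 0.54 CPM per kilobase, and the ranges did not overlap. *Pycr1* and *Ass1* were the lowest of the measured members in WT cells at day 0, with 0.97 ± 0.12 and 1.99 ± 0.48 CPM per kilobase.

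Over the 6 group means, the genes whose pattern of log2(CPM + 0.5) was closest to each member were found among 12149 genes with a mean of at least 1 CPM, by the root mean square difference after centring. For *Aldh18a1* they were *Gpt2* (0.15), *Soat2* (0.16) and *Snhg12* (0.16), for *Got1* they were *Cebpb* (0.14), *Sars* (0.14) and *Aldh18a1* (0.17), and for *Pycr1* they were *Soat2* (0.19), *Snhg12* (0.20) and *2410006H16Rik* (0.26). *Got1* had rank 4 among the genes closest to *Aldh18a1*. The closest to *Prodh* were *Trub1* (0.06), *Nop16* (0.09) and *Nsun2* (0.10), and those to *Ass1* were *Cd44* (0.09), *Hspbp1* (0.10) and *Endog* (0.13). The closest to *Oat* were *Elovl5* (0.05), *Hdhd2* (0.05) and *Nrde2* (0.06), and those to *Asl*, whose levels moved least, were *Gm12454* (0.03), *Pdcd1lg2* (0.04) and *Mbp* (0.06). These values describe 6 points that share libraries.

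A list of 45 other genes of arginine and proline metabolism gave the setting of the members. Of its 32 genes tested at day 5, Abcb10-null cells had 13 at a higher level and 3 at a lower level, where 19.8% and 17.8% of all genes were called higher and lower, and the median of the log2 differences was 0.24. At day 2 it was 8 higher and 2 lower of 31, where 31.8% of all genes were called, 14.9% higher and 16.9% lower. At day 2 the list thus had about the background share with both directions together. At day 5 it had a larger one, with 16 of the 32 genes not called, where 37.6% of all genes were called. On both days a larger share of the list than of all genes was higher and a smaller share was lower. At day 0 the list had 8 higher and 7 lower of 32, where 36% of all genes were called, 19.7% higher and 16.2% lower. The genes of the list with the highest differences at day 5 were *Gpt2*, a mitochondrial alanine aminotransferase that uses glutamate (2.03 ± 0.33, adjusted p = 0.000514), *Rars*, the arginyl-tRNA synthetase (1.99 ± 0.14, adjusted p = 1.87e-06), and *Asns*, which makes asparagine from aspartate (1.52 ± 0.27, adjusted p = 0.000936). The *Gpt2* mean was 38.6 ± 27.6 CPM in WT cells and 158 ± 29.4 CPM in Abcb10-null cells, with no overlap. Of the genes with a mean of at least 1 CPM, 2 were lower. They were *Aldh4a1*, which carries proline breakdown on from the shared intermediate to glutamate (-1.04 ± 0.16, adjusted p = 0.000393), and *P4ha1*, a prolyl hydroxylase subunit (-0.75 ± 0.26, adjusted p = 0.0342). *Aldh4a1* had 21.8 ± 3.87 CPM in WT cells and 10.7 ± 1.50 CPM in Abcb10-null cells at day 5, and the groups did not overlap. The breakdown steps *Prodh* and *Aldh4a1* thus differed in opposite directions at day 5.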

How the data were processed

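RNA of 30 libraries, 5 for each genotype and day, was depleted of ribosomal and globin RNA, made into stranded libraries and sequenced by the authors. Reads were aligned to GRCm38 with STAR 2.6.1b and assigned to Ensembl genes with featureCounts 1.6.3, as named in the submitters' processing notes. The deposited values are raw counts per gene, not normalized, and the strand and multimapping settings of the counting are not given in the sources used here. Gene names, positions and exon lengths came from the GENCODE M21 annotation of GRCm38, in which 37 of the 54532 identifiers were not listed.

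Sample labels gave the groups and the replicate numbers. The 9 members, the gene lists and the motifs were chosen with earlier results of these data known. The members, the highest and lowest genes of the pathway list at day 5 with a mean of at least 1 CPM, and the 3 genes closest to each member are named. The test across genes was edgeR 4.0.16 in R 4.3.3 (TMM, filterByExpr, glmQLFit and glmQLFTest, Benjamini-Hochberg over all genes tested, adjusted p under 0.05), using the libraries of the groups compared only. Errors of log2 fold changes are standard errors. CPM is the count over the TMM-scaled library total. A count of 3 was taken as the floor. Replicates differed by more than counting error (lowest chi-square per degree of freedom 6.32). The fits were tested on simulated data. Alternatives were DESeq2 1.42.0, its size factors in edgeR, other filters on low counts, all 30 libraries in one fit, a replicate block, leaving out each library in turn, and a pseudocount of 2 CPM. Leaving out the day 5 libraries with most genes counted was chosen after seeing the data.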

Additional observations from a re-analysis of the deposited data

Results flagged for a closer look

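Of the 66 sets of 5 libraries checked for a library far from the others (the gap to the nearest library over the range of the group, with a critical value of 0.710), 8 had one, where chance flags about 1 in 20. In WT cells at day 5, replicate 5 was the highest and stood apart for *Aldh18a1* (gap over range 0.968), *Got1* (0.986), *Prodh* (0.866) and *Pycr1* (0.756), and for the log2 ratio of *Aldh18a1* to *Prodh* (0.842). Its levels were 167 CPM of *Aldh18a1*, 146 CPM of *Got1*, 17.7 CPM of *Prodh* and 4.05 CPM of *Pycr1*, and its summed erythroid markers were the lowest of the group. The cause was not tested. The remaining sets were *Asl* in Abcb10-null cells at day 0, where replicate 1 was lowest (0.759), *Pycr1* in WT cells at day 0, where replicate 4 was lowest (0.746), and *Abcb10* in Abcb10-null cells at day 2, where replicate 3 was highest (0.819).

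The change from day 0 differed between the genotypes by the interaction test of edgeR for 4 members. Over 2 days the log2 difference was 1.74 for *Aldh18a1*, 1.73 for *Got1* and 0.66 for *Prodh*. Over 5 days it was 2.82 for *Pycr1*, 2.43 for *Aldh18a1*, 2.33 for *Got1* and 1.29 for *Prodh*.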

How the results depend on the processing

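No member reversed its direction with a call under any alternative run. With all 30 libraries in one fit the number of members called at day 0 between the genotypes was 2 in place of 4, and *Aldh18a1* in WT cells at day 2 lost its call (log2 change -0.61, adjusted p = 0.113), and the cause was not tested. Leaving out each library in turn, the number called between the genotypes at day 2 ran from 2 to 5, at day 5 from 5 to 6, and for the difference in change over 2 days from 2 to 4. A pseudocount of 2 CPM moved the log2 ratio of *Pycr1* to *Prodh* to -3.73 in WT cells at day 0, -3.60 in Abcb10-null cells at day 0 and -2.0 in WT cells at day 5. DESeq2 gave *Aldh18a1* no adjusted p in WT cells from day 0 to day 5, and there called 5 members in place of 6. DESeq2 size factors in edgeR changed no call.

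The deviations of same-numbered libraries of different groups had a median correlation of -0.0253 (75 pairs, -0.396 to 0.517, 17 over 0.1). With a median near 0 the numbers were not taken as pairing. Differently numbered libraries were not correlated, so these values have no reference and cannot decide whether some libraries were paired. With a replicate block 4 members were called between the genotypes at day 2 and 5 at day 5, *Oat* at day 2 (adjusted p = 0.061) and *Asl* at day 5 (adjusted p = 0.0573) losing their calls, and it changed no other call. At day 5 the depth of *Ass1* and of the arginases limits what could be tested.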
